A study of Mus musculus with 16 samples.

Results

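The 38 genes described here act in the DNA damage response and in DNA repair. They were chosen by name, as Fanconi anemia, homologous recombination, checkpoint, p53, end joining, mismatch and base repair genes. No cutoff on measured values was used, but earlier results of these data were known when the genes were chosen. All 38 were found among the 21851 protein-coding genes of the GENCODE M21 annotation of the mouse genome (build mm10). The marks were read from chromatin immunoprecipitation followed by sequencing (ChIP-seq) of hematopoietic stem cells (HSCs), which reside in the bone marrow and give rise to all blood cells. HSCs of young (10 weeks) and aged (20 months) C57BL/6 mice were profiled for H3K4me3, H3K27me3 and H2AK119ub1. Cells were sorted for Sca-1+, c-kit+ and CD150+ and against the receptor IL-7Rα, lineage markers (Lin), CD34, CD48 and Flt3. Each age had 2 libraries of every mark and 2 of input. No mutation or treatment was given to either age, and the labels do not say whether the 2 libraries of a group came from separate mice.

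The authors deposited 1 pooled peak list per mark and age, so 6 lists were used. Values of single libraries were not analysed here, so replicate spread is unknown and every contrast of young with aged HSCs is descriptive, without a test. A gene was counted as carrying a mark when a listed peak overlapped, by at least 1 bp, the 1 kb on either side of any of its protein-coding start sites. H3K4me3 was listed at 11371 peaks in young and 6723 in aged HSCs, H3K27me3 at 63142 and 20419 regions, and H2AK119ub1 at 2593 and 17768 regions. The lists thus differed in length, and the share of all protein-coding genes in the same list is the background of a count at one age. Among genes fixed as HSC markers, Procr, Mecom, Hlf, Meis1 and Tal1 had H3K4me3 in both lists, Gata2 in the young list, Kit in the aged list, and Ly6a and Slamf1 in neither. None of the 3 B cell, 3 T cell and 4 myeloid marker genes had a promoter peak of H3K4me3 at either age, while the endothelial gene Kdr had one in aged HSCs.

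H3K4me3 is found around the start sites of active and poised genes, whereas H3K27me3 and H2AK119ub1 are laid down by the Polycomb repressive complexes PRC2 and PRC1 and are typical of silent developmental genes. DNA repair genes are used by nearly every cell. In HSCs they have a known part in long-term maintenance, since these cells are mostly quiescent and long-lived, and loss of the Fanconi anemia pathway leads to bone marrow failure in humans.

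The promoters of the 38 genes were mostly of the CpG-rich kind. CpG content was measured as the CpG dinucleotides observed over those expected from the C and G bases, within 300 bp on either side of the start of the gene record. The median of the 38 genes was 0.83, against 0.58 over all protein-coding genes. At a ratio of at least 0.6, 31 of the 38 (81.6%) were CpG-rich, against 10573 genes (48.4%) in all. The other 7, at that position, were Fancc, Fanci, Fancl, Trp53, Mdm4, Xrcc5 and Xrcc6. The marks were read at protein-coding start sites, which can lie elsewhere. When any start site could count, 33 of the 38 (86.8%) were CpG-rich, against 54.3% of all genes. Those that were not were then Xrcc5, Nhej1, Fancg, Trp53 and Slx4. Another feature of these promoters was a close neighbor. For 12 of the 38 genes (31.6%), a protein-coding gene on the opposite strand had a start site less than 1 kb upstream, against 10.5% of all protein-coding genes. The pairs included Brca1 with Nbr1 (270 bp), Atm with Npat (307 bp), Mre11a with Ankrd49 (104 bp), Prkdc with Mcm4 (489 bp), Fancd2 with Emc3 (30 bp) and Lig4 with Abhd13 (21 bp). A peak between such a pair cannot be assigned to one of the genes.

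Promoter sequences (250 bases before to 50 after the start, from RefSeq, build GRCm38.p6, the same assembly as mm10) were found for 33 of the 38 genes. Shown first are stretches without annotated exons from the promoter of Brip1, a helicase that binds Brca1 and ranked first by the lower of its 2 H3K4me3 −log10 q-values, and from that of Atm, the kinase that responds to double-strand breaks and 1 of 3 genes with a Polycomb mark. CpG dinucleotides are in capitals. The Brip1 stretch (chr11:86201216-86201359, minus strand) holds 12 CpGs in 144 bases and the Atm stretch (chr9:53536829-53536888, minus strand) 6 in 60 bases.
Brip1: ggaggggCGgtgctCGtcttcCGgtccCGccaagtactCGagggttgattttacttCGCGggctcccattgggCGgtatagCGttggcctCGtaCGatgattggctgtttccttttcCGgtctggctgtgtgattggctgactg
Atm: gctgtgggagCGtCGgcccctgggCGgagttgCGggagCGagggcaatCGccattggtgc
No listed peak of any mark overlapped either stretch. At both genes the H3K4me3 peaks lay to the sides of it.

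A set of 7 short motifs was searched on both strands of the 33 promoters and of the 16515 protein-coding genes with such a promoter. The sequence TTTCCCGC, which is bound by the E2F cell-cycle factors, occurred at 6 of the 33 genes (18.2%), against 1.67% of all promoters, 2.70% of the 8248 CpG-rich ones and 2 of 60 promoters of other repair genes. These sites are shown with 11 bases on each side and the motif in capitals, as read on the strand of the motif.
Brca2: gtgtgtgtctgTTTCCCGCtgtggcctaaa
Chek2: cgacgtcttggTTTCCCGCggctaatcccg
Fancg: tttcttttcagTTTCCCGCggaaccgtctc
Msh6: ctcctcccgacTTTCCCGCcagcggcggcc
Rad51c: gaccccttgctTTTCCCGCcctcgcggggg
Xrcc6: gcccactcgcaTTTCCCGCttccaccccct
The middle of the motif lay 164 bp before the RefSeq start of Brca2 (chr5:150522442-150522471, minus strand), 148 bp before the RefSeq start of Chek2 (chr5:110839820-110839849, minus strand) and 48 bp before the RefSeq start of Fancg (chr4:43010335-43010364, minus strand). It lay 19 bp after the RefSeq start of Msh6 (chr17:87975054-87975083, plus strand), 1 bp before the RefSeq start of Rad51c (chr11:87404941-87404970, plus strand) and 42 bp before the RefSeq start of Xrcc6 (chr15:82016312-82016341, minus strand). All 6 genes had H3K4me3 at one age at least, as had 31 of the 38 (81.6%) and 39.6% of all genes. Chek2 and Xrcc6 had it at both ages, Fancg in the young list alone, and Brca2, Rad51c and Msh6 in the aged list alone. A relation of the motif to the mark was not tested. The related E2F sequence TTTGGCGC was in none of the 33 (0.763% of all). The GC box GGGCGG was found at 21 of 33 (63.6%, against 51.0% of all, 74.0% of CpG-rich and 68.3% of other repair promoters). In the same order of sets, CCAAT, bound by NF-Y, was found at 20 (60.6%, against 42.1%, 41.7% and 53.3%). GCATGCGC, the core of the NRF1 motif, was found at 5 (15.2%, against 4.11%, 6.89% and 10.0%). TGACGTCA (CRE) was found at 2 (6.06%, against 2.64%, 3.93% and 3.33%) and CACGTG (E-box) at 4 (12.1%, against 9.18%, 12.3% and 16.7%). At Parp1, whose promoter was covered by annotated exons, the GC box nearest the RefSeq start (in capitals) lay 12 bp before it (chr1:180568865-180568892, minus strand).
Parp1: tcgcgcgcggaGGGCGGggcctcagctc
A match is a description of the letters and says nothing of whether a factor was bound.

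H3K4me3 was listed at most of the repair gene promoters, at either age or both. It was present at 25 of 38 genes in young HSCs (65.8%, Wilson 95% interval 49.9 to 78.8) and at 20 in aged HSCs (52.6%, 37.3 to 67.5). Over all protein-coding genes the shares were 33.8% and 23.3%, and over CpG-rich genes 54.4% and 37.8%. The share of the repair genes was thus 1.95 times that of all genes in the young list and 2.26 times in the aged list. For CpG-rich genes these ratios were 1.61 and 1.62. The share of CpG-rich genes lay within the interval of the repair genes at both ages. The intervals cover counting over genes only. In all, 31 genes had H3K4me3 at either age. Both lists held 14 genes (36.8%, against 17.5% of all genes), the young list alone 11 (28.9% against 16.3%), the aged list alone 6 (15.8% against 5.78%) and neither list 7 (18.4% against 60.4%).

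**Figure D1:**
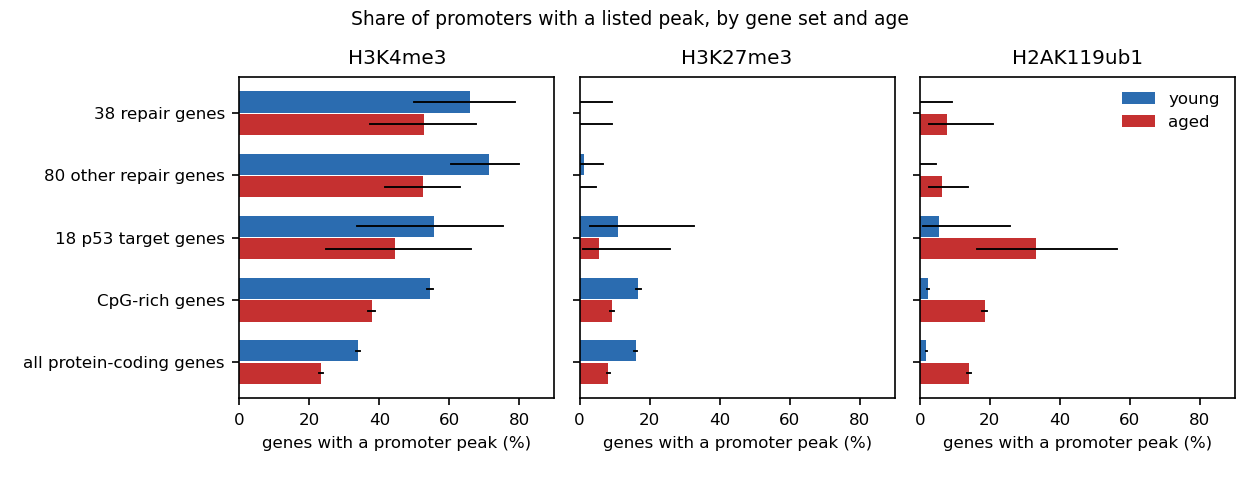
Share of genes with a listed promoter peak (x axis, percent) for each mark and age, in the 38 repair genes, 80 other repair genes, 18 p53 target genes, CpG-rich genes and all protein-coding genes; bars give the share and lines the Wilson 95% interval over genes. The H3K4me3 bars of the repair genes reach 65.8% and 52.6%, those of all genes 33.8% and 23.3%, and no repair gene among the 38 has H3K27me3.

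The lower count in aged HSCs went with a shorter list. Of the 25 genes marked in young HSCs, 14 (56.0%) were also marked in aged HSCs, against 51.8% of all genes marked in the young list. Of the 20 marked in aged HSCs, 70.0% were marked in young HSCs, against 75.2% of all. When the young list was cut to the length of the aged one by its −log10 q-value (the q-value is the p-value of a peak adjusted for multiple testing), 18 of the 38 genes were marked in young and 20 in aged HSCs, so that the order of the ages turned, while the shares of all genes were 23.4% and 23.3%. The part of list length in the difference between the ages was otherwise not tested.

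**Figure D2:**
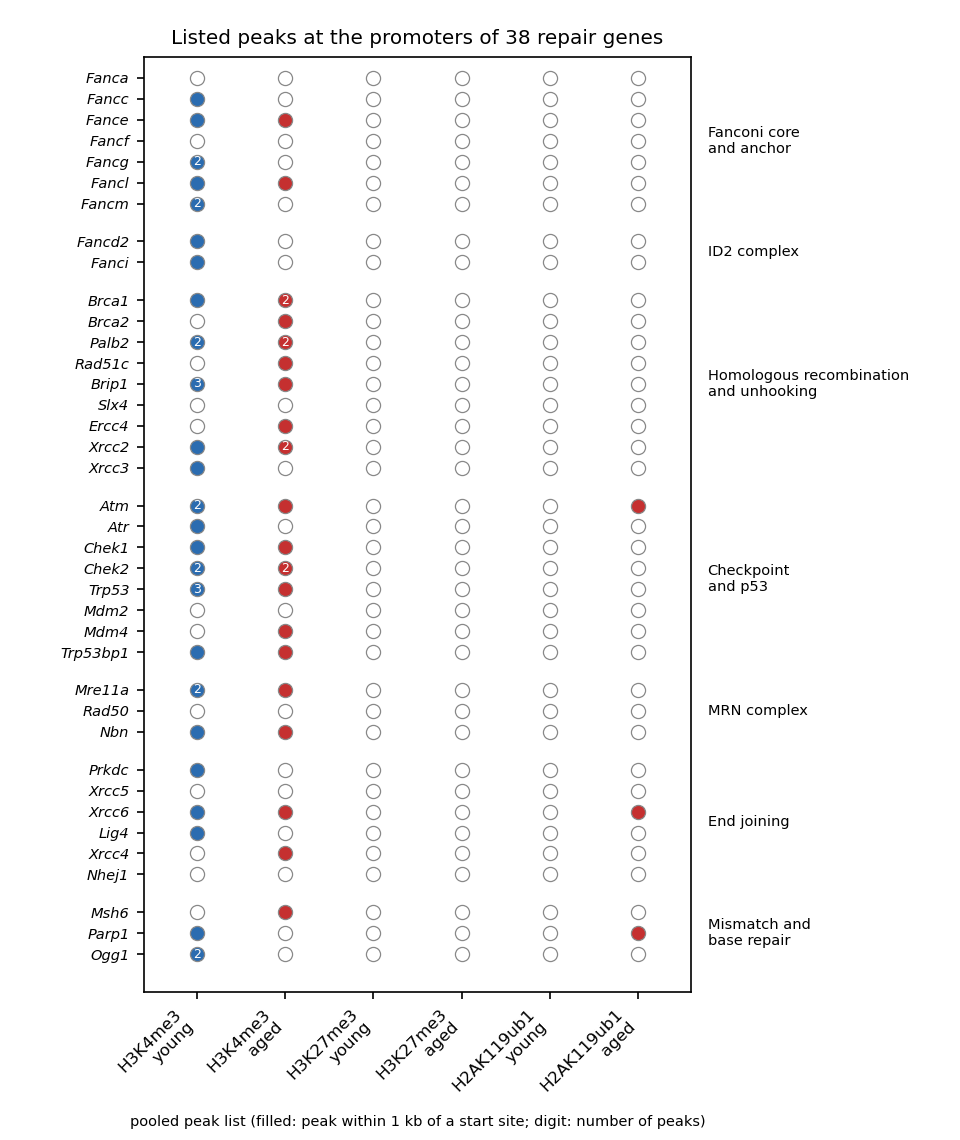
Each row is 1 of the 38 genes, grouped by role, and each column a pooled peak list. A filled circle marks at least 1 listed peak within 1 kb of a start site and a digit the number of peaks where there were more; the H3K4me3 columns hold 25 and 20 filled circles, the H3K27me3 columns none, and the aged H2AK119ub1 column 3.

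The Fanconi anemia pathway recognizes DNA interstrand crosslinks. Its core complex, anchor and ID2 complex gave 9 genes, while genes of homologous recombination and crosslink unhooking were counted separately. H3K4me3 was listed at 7 of these 9 genes in young HSCs (33.8% of all genes) and at 2 in aged HSCs (23.3% of all genes). The aged count of these 9 genes was thus near the share of all genes, which does not extend to the whole pathway. Fancl, the ubiquitin ligase of the core complex, and the core subunit Fance had it at both ages. Fancc and Fancg of the core complex, the anchor Fancm, and both subunits of the ID2 complex that Fancl modifies, Fancd2 and Fanci, had it in the young list alone. The core subunits Fanca and Fancf had it in neither. At equal list lengths, 4 of the 9 genes were marked in young and 2 in aged HSCs.

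Fance had 1 young peak (chr17:28313869-28314081, 4.25-fold over background, −log10 q 4.78, 19 reads at the summit) and 1 aged peak (chr17:28313605-28313945, 3.76-fold, −log10 q 3.14, 16 reads). They overlapped by 77 bp over the first exons of the gene. Fancl carried the strongest aged peak of the 38 genes (chr11:26387084-26387415, 5.97-fold, −log10 q 8.79, 26 reads), over its start site. Its young peak at the same place (chr11:26386997-26387401) reached 27 reads and 3.14-fold (−log10 q 4.13), over a local background of 7.92 reads against 3.52 reads in the aged list. The young peaks of the 5 genes marked in the young list alone ranged from 1.95 (Fancd2) to 6.09 (Fancg) in −log10 q.

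Homologous recombination repairs double-strand breaks from an intact copy, and among its genes and those that unhook crosslinks H3K4me3 was listed at 5 of 9 in young and 7 of 9 in aged HSCs, against 33.8% and 23.3% of all genes. Both counts were the same at equal list lengths. Brca1, its partner Palb2, the helicase Brip1 and Xrcc2 had H3K4me3 at both ages. Xrcc3 had it in the young list alone. Brca2, a mediator of strand exchange, Rad51c and Ercc4, the nuclease also known as XPF, had it in the aged list alone, with −log10 q of 5.83, 3.24 and 4.00. Slx4, a nuclease scaffold, had no peak within 1 kb of its protein-coding start site. A young peak (4.48-fold, −log10 q 6.09) lay 1787 bp from it and only 75 bp from the start of its gene record.

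Brip1 had 3 young peaks, the strongest of them upstream (chr11:86201446-86201667, 5.31-fold, −log10 q 7.77, 24 reads), and 1 aged peak at that place (chr11:86201396-86201863, 5.08-fold, −log10 q 6.42, 22 reads). Both lay over exons of the noncoding Brip1os. Palb2 had 2 peaks at each age, 1 over its start site and 1 upstream over Dctn5. Its stronger peak gave 3.89-fold in young (chr7:122133161-122133425, −log10 q 5.59, 26 reads) and 5.05-fold in aged HSCs (chr7:122133079-122133474, −log10 q 7.92, 28 reads). The peaks of the 2 ages thus overlapped at both genes, and the aged value was the lower at Brip1 and the higher at Palb2.

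Brca1 was marked at both ages but not at the same place. The young peak (chr11:101552132-101552580, 3.70-fold, −log10 q 6.38, 32 reads) lay upstream in the 5′ region of Nbr1. The aged peaks lay at 184 bp downstream (chr11:101551612-101551811, 4.42-fold, −log10 q 4.71, 19 reads) and at 1343 bp upstream (chr11:101552870-101553283, 4.18-fold, −log10 q 5.27, 23 reads), measured at the summit. The second of these was the peak closest to the 1 kb limit, with its edge 991 bp from the start site. Xrcc2 had 1 young peak (chr5:25705218-25705771, 4.44-fold, −log10 q 5.52, 21 reads) that spanned both aged peaks, of which the stronger gave 3.83-fold (chr5:25705512-25705737, −log10 q 4.16, 21 reads).

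Among the checkpoint kinases and p53, 6 of 8 genes were marked at each age, against 33.8% of all genes in young and 23.3% in aged HSCs. Atm, the checkpoint kinases Chek1 and Chek2, Trp53, the gene of p53, and Trp53bp1, which steers breaks toward end joining, were marked at both ages. Atr, the kinase of replication stress, was marked in the young list alone (15 reads, −log10 q 1.99) and Mdm4, a p53 inhibitor, in the aged list alone (25 reads, −log10 q 4.41). Mdm2, the ubiquitin ligase of p53, was in neither. A young peak inside Mdm2 (3.61-fold, −log10 q 3.15) lay 1124 bp from its start site and was the closest miss of the 1 kb limit.

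Atm had a young peak over its own 5′ region (chr9:53536234-53536645, 3.48-fold, −log10 q 3.48, 19 reads) and another over the start of Npat (chr9:53537106-53537919, 3.17-fold, −log10 q 3.23, 21 reads). In aged HSCs the Npat side alone was listed (chr9:53537090-53537370, 4.42-fold, −log10 q 4.71, 19 reads).

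Trp53 carried more young peaks than the other genes of this group. Of its 3 young peaks, 2 lay upstream in an intron of Wrap53 (both 3.46-fold, −log10 q 4.19, 23 reads). The third covered 960 bp of the Trp53 5′ region (chr11:69580500-69581459, 5.10-fold, −log10 q 7.16, 23 reads) and was the widest of all the repair gene peaks. In aged HSCs a single 548 bp peak was listed (chr11:69580397-69580944, 3.65-fold, −log10 q 3.69, 20 reads), which overlapped the wide young peak by 445 bp and covered a start site.

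Chek2 had 2 peaks at each age, the upstream one over Hscb being the stronger, with 4.48-fold in young (chr5:110839551-110839766, −log10 q 6.09, 23 reads) and 4.35-fold in aged HSCs (chr5:110839410-110839756, −log10 q 5.80, 24 reads). Its values were the most alike of the group. Chek1 gave 4.04-fold in young (chr9:36726789-36727111, −log10 q 6.09, 27 reads) and 4.20-fold in aged HSCs (chr9:36726717-36726916, −log10 q 4.16, 18 reads). Trp53bp1 gave 4.48-fold (chr2:121271145-121271396, −log10 q 6.09, 23 reads) and 3.91-fold (chr2:121271045-121271339, −log10 q 4.00, 19 reads). Fold over background and −log10 q thus took opposite orders at Chek1, where the young local background was higher (5.94 reads against 3.52).

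In the MRN complex, the sensor of double-strand breaks, Mre11a and Nbn were marked at both ages and Rad50 at neither. This gave 2 of 3 genes in each list, against 33.8% of all genes in young and 23.3% in aged HSCs. Counts of so few genes cannot be told apart from these shares. The nearest H3K4me3 peak to Rad50 lay 55467 bp away in the young and 321002 bp away in the aged list. Mre11a, the nuclease of the complex, held the strongest young peak of the 38 genes (chr9:14784722-14785459, 5.95-fold, −log10 q 9.65, 27 reads), 738 bp wide, downstream of the start. No aged peak was listed there. The aged peak (chr9:14784135-14784533, 4.64-fold, −log10 q 5.27, 20 reads) lay upstream over Ankrd49, at the place of the weaker young peak. Nbn gave near-equal values in young (chr4:15958164-15958635, 4.25-fold, −log10 q 4.78, 19 reads) and aged HSCs (chr4:15957962-15958342, 4.42-fold, −log10 q 4.71, 19 reads).

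Nonhomologous end joining rejoins broken ends directly. H3K4me3 was listed at 3 of its 6 genes in young and 2 in aged HSCs, against 33.8% and 23.3% of all genes. Counts of so few genes cannot be told apart from these shares. Lists of equal length gave 1 of the 6 in young and 2 in aged HSCs. Xrcc6, the Ku70 subunit that binds ends, was marked at both ages. The kinase gene Prkdc and the ligase gene Lig4 were marked in the young list alone (−log10 q 3.92 and 4.22), and Xrcc4, the partner of Lig4, in the aged list alone (−log10 q 5.27). Xrcc5, the Ku80 subunit, and Nhej1 were counted in neither. For Nhej1 this rests on the annotation, since a young peak (4.89-fold, −log10 q 6.54) covered the start of the gene record, 78561 bp from the protein-coding start site that was used.

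At Xrcc6 the peaks of the 2 ages lay 629 bp apart, near different start sites. The young peak (chr15:82015446-82015758, 4.04-fold, −log10 q 4.22, 18 reads) covered one, and the aged peak (chr15:82016387-82016668, 5.08-fold, −log10 q 6.42, 22 reads) began 18 bp from another. Xrcc6 and Brca1 were the 2 of 14 genes whose peaks did not overlap between the ages. The remaining 12 (85.7%) overlapped by at least 1 bp, against 80.4% of the 3825 genes marked at both ages.

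Of the mismatch and base repair genes, Parp1, a sensor of strand breaks, and Ogg1, which removes oxidized guanine, were marked in the young list alone, with −log10 q of 4.22 and 4.96. Msh6, which recognizes mismatches, was marked in the aged list alone, with −log10 q of 4.71. The 3 genes thus gave 2 marked in young and 1 in aged HSCs, against 33.8% and 23.3% of all genes, and the same counts at equal list lengths. None was marked at both ages, against 17.5% of all genes. Counts of so few genes cannot be told apart from these shares.

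**Figure D3:**
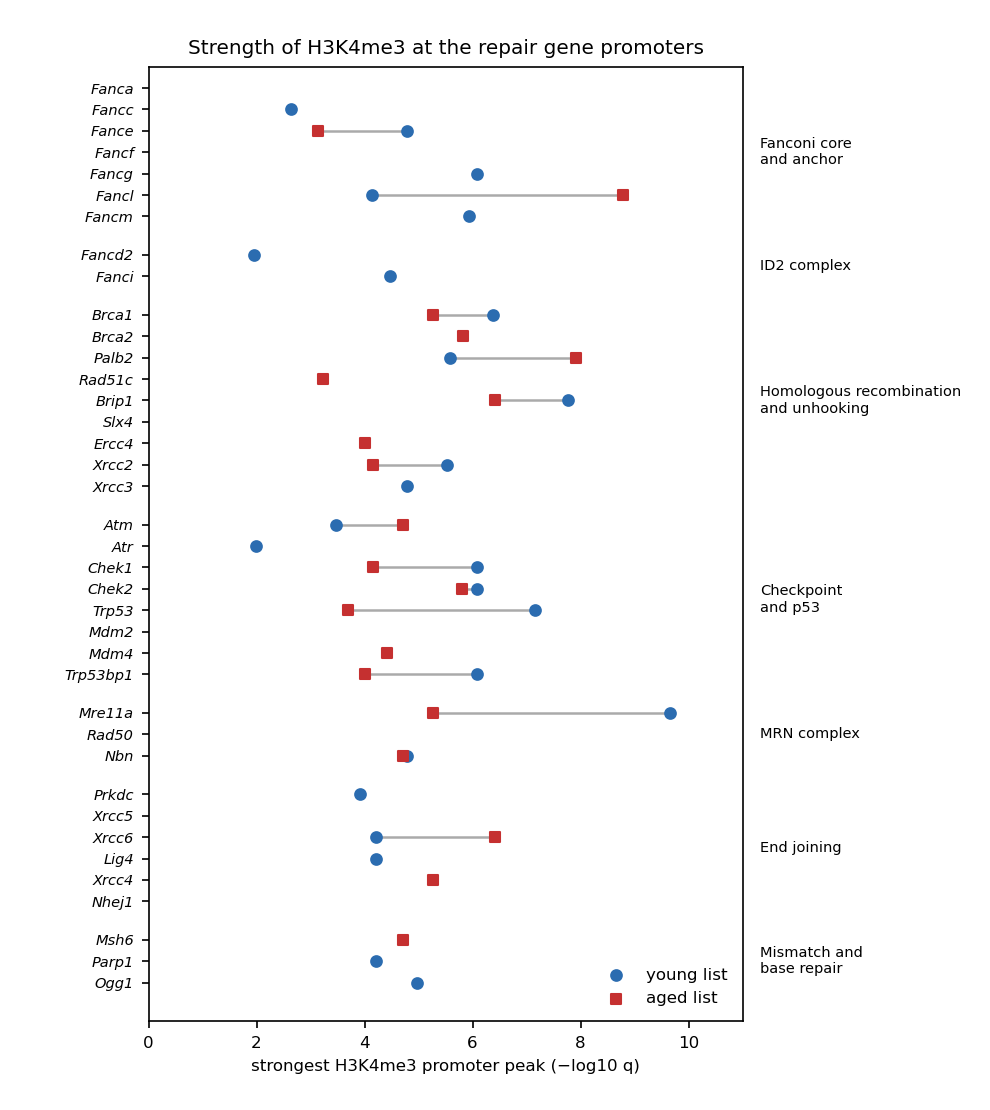
Strongest H3K4me3 promoter peak of each gene, as −log10 q (x axis), in the young list (blue circles) and the aged list (red squares), with a line joining the 2 ages where both have a peak; rows without a symbol have no listed peak. Mre11a is the highest in young (9.65) and Fancl in aged HSCs (8.79), and of the 14 joined genes 10 are higher in the young list. Over all genes marked at both ages the median was also higher in the young list (5.35 against 4.71).

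The strength of the mark was near that of other marked genes. The strongest promoter peak of a gene had a median of 4.04-fold and 21 reads over the 25 young genes, against 4.25-fold and 21 reads over all 7389 marked genes. In aged HSCs the medians were 4.39-fold and 20.5 reads over 20 genes, against 4.20-fold and 19 reads over 5089. Of the 14 genes marked at both ages, the fold was higher in the aged list at 7 and in the young list at 7, while −log10 q was higher in the aged list at 4 and in the young list at 10. In the young list the genes shared with the aged list had a median −log10 q of 5.84 and those without it 4.22. Over all genes these medians were 5.35 and 4.78. The aged list gave the shared genes a median of 4.99, and 4.71 over all shared genes. The shared genes thus had the lower median in the aged list in both sets.

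The peaks were narrow and mostly flanked the start site. Widths ranged from 200 to 960 bp in young and from 200 to 576 bp in aged HSCs. Of 36 young peaks at these promoters, 22 (61.1%) had their summit downstream of the nearest start site, against 65.6% over all genes, and of 24 aged peaks 16 did (66.7% against 65.4%). A start site was covered by 4 of the 36 young peaks (11.1% against 14.7%) and by 3 of the 24 aged peaks (12.5% against 13.9%). The summit lay at a median of 321.5 bp in young and 278 bp in aged HSCs, against 349.5 bp and 322 bp over all genes. Summits within 500 bp of a start site numbered 26 of 36 (72.2% against 67.2%) and 21 of 24 (87.5% against 70.7%). Chromatin had been fragmented with micrococcal nuclease, which cuts between nucleosomes, and with sonication, and their part in these positions was not tested.

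**Figure D4:**
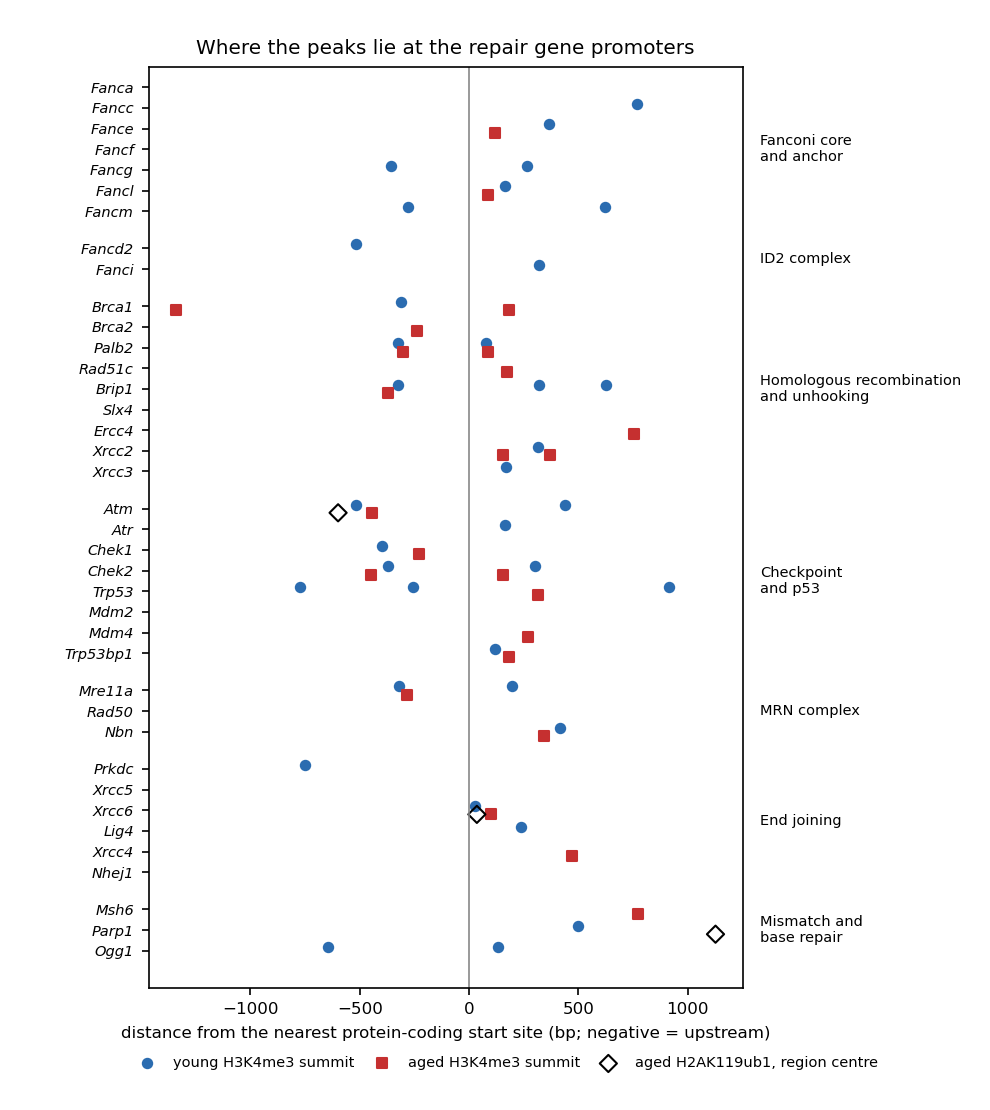
Distance in bp of each peak from the nearest protein-coding start site (x axis, negative upstream), by gene; blue circles are young and red squares aged H3K4me3 summits, and open diamonds the centers of aged H2AK119ub1 regions. Most summits sit to one side of the start site, and the farthest, of Brca1 in aged HSCs, lies 1343 bp upstream.

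At genes with a divergent neighbor, H3K4me3 was listed at 10 of 12 repair genes in young (83.3%) and 8 in aged HSCs (66.7%). All genes with such a neighbor gave 70.0% and 51.3%. Without one, the repair genes gave 15 of 26 (57.7%) and 12 of 26 (46.2%), against 29.6% and 20.0% of all such genes. Of the 19 repair genes with 1 start site, 10 were marked in young (52.6%) and 7 in aged HSCs (36.8%), against 28.8% and 19.5% of all such genes. Of the 19 with more, 15 (78.9%) and 13 (68.4%) were marked, against 38.5% and 26.9%. The share was thus higher with more start sites among all genes as well as among the repair genes.

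The 7 genes without a counted H3K4me3 peak at either age were Fanca, Fancf, Slx4, Mdm2, Rad50, Xrcc5 and Nhej1. At 4 of them no H3K4me3 peak was listed closer than 52667 bp in either list, the nearest being 93856 and 54564 bp from Fanca, 144036 and 143316 bp from Fancf and 52667 and 275364 bp from Xrcc5, in young and aged HSCs, respectively, and those of Rad50 given above. The absence of a listed peak does not show absence of the mark at this depth, where a summit of the young list held 20 reads at the median and one of the aged list 19.

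H3K27me3 was absent from the list at every repair gene promoter, at both ages (0 of 38, Wilson 95% interval 0 to 9.18%), against 16.0% of all genes and 16.7% of CpG-rich genes in young HSCs and 8.24% and 9.17% in aged HSCs. The closest young region lay 10189 bp from Atr and the closest aged region 7449 bp from Fancl. Within 10 kb of a start site, H3K27me3 was listed for 0 of 38 in young and 1 in aged HSCs, against 26.6% and 15.4% of all genes. The median distance was not short or long for these genes, with 60793.5 bp against 57661.5 bp of all genes in young and 134528 bp against 138841 bp in aged HSCs. At Fancc a young region (chr13:63497415-63497656, 2.90-fold, −log10 q 1.95) lay 137 bp from the start of the gene record, which is 65533 bp from the protein-coding start sites used.

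H2AK119ub1 was listed at no repair gene promoter in young HSCs (0 of 38 against 1.91% of all genes). In aged HSCs it was listed at 3 (7.89%, 2.72 to 20.8), against 14.0% of all and 18.6% of CpG-rich genes. These were Atm, Xrcc6 and Parp1. The Atm region (chr9:53537240-53537439, 3.38-fold, −log10 q 1.85) lay 500 bp upstream in an intron of Npat and overlapped the upstream H3K4me3 peaks of both ages. The Xrcc6 region (chr15:82015247-82015864, 3.32-fold, −log10 q 1.80) covered the start site that had the young H3K4me3 peak. The Parp1 region (chr1:180569840-180570274, 3.73-fold, −log10 q 2.55) lay 911 bp downstream in an intron, past the young H3K4me3 peak (chr1:180569233-180569547, 4.04-fold, −log10 q 4.22, 18 reads). Atm and Xrcc6 thus had H3K4me3 and H2AK119ub1 in the aged lists and Parp1 H2AK119ub1 alone. Both marks were listed at 2 of 38 genes (5.26%, 1.46 to 17.3), near the 3.16% of all and 4.74% of CpG-rich genes. At Xrcc6 the aged H3K4me3 peak and the H2AK119ub1 region did not overlap. The medians of the aged list were 3.22-fold and 1.72 in −log10 q, close to the values of Atm and Xrcc6 and below those of Parp1. None of the 3 regions remained at −log10 q of at least 4. When the aged list was cut to the length of the young one, Parp1 remained.

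Other repair genes were marked at shares of the same order. Of 80 further genes, of these pathways and of others such as nucleotide excision repair and translesion synthesis, H3K4me3 was listed at 57 in young (71.2% against 33.8% of all genes) and 42 in aged HSCs (52.5% against 23.3%), at 36 in both, at 21 in the young list alone and at 6 in the aged list alone. H3K27me3 was listed at 1 in young HSCs (1.25% against 16.0% of all genes) and at none in aged HSCs (against 8.24%). This gene was Mad2l2, a translesion synthesis and end protection gene (2.95-fold, −log10 q 1.96). H2AK119ub1 was listed at 0 in young HSCs, against 1.91% of all genes. In aged HSCs it was listed at 5 (6.25%), against 14.0% of all and 18.6% of CpG-rich genes. These 5 were Mad2l2, the helicase gene Wrn, the ubiquitin ligase gene Rnf8, the checkpoint clamp gene Rad9a and the nuclease gene Mus81. Their regions reached 2.89-fold at Wrn and 3.23-fold at Rnf8, and the highest −log10 q was 2.11, at Mus81.

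The targets of p53, which carry out its response, were set beside them. Of 18, H3K4me3 was listed at 10 in young (55.6%) and 8 in aged HSCs (44.4%), against 33.8% and 23.3% of all genes and 54.4% and 37.8% of CpG-rich genes. Ccng1, Sesn1, Zmat3 and Plk2 had it at both ages, the cell-cycle inhibitor gene Cdkn1a, Pmaip1, Phlda3, Ppm1d, Trp53inp1 and Aen in the young list alone, Gadd45a, Sesn2, Fas and Tnfrsf10b in the aged list alone, and Bbc3, Bax, Btg2 and Perp in neither. H2AK119ub1 was listed at 6 in aged HSCs (33.3%, 16.3 to 56.3), against 14.0% of all and 18.6% of CpG-rich genes. The share of CpG-rich genes lay within the interval. Listed were Bbc3, Pmaip1, Fas, Aen, Phlda3 and Sesn2, while the apoptosis genes Bax, Perp and Tnfrsf10b were not. In young HSCs H2AK119ub1 was listed at Pmaip1 alone (5.56% against 1.91% of all genes). H3K27me3 was listed at Pmaip1 (3.36-fold) and Phlda3 (3.28-fold) in young and at Pmaip1 (2.98-fold) in aged HSCs. These shares, 11.1% and 5.56%, were below the 16.0% and 8.24% of all genes. Aen held the strongest H2AK119ub1 region of the p53 targets (3.96-fold, −log10 q 2.96), so none of their regions reached −log10 q of 4. Bbc3 followed with 3.57-fold and −log10 q of 2.39, without H3K4me3 at either age.

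**Figure D5:**
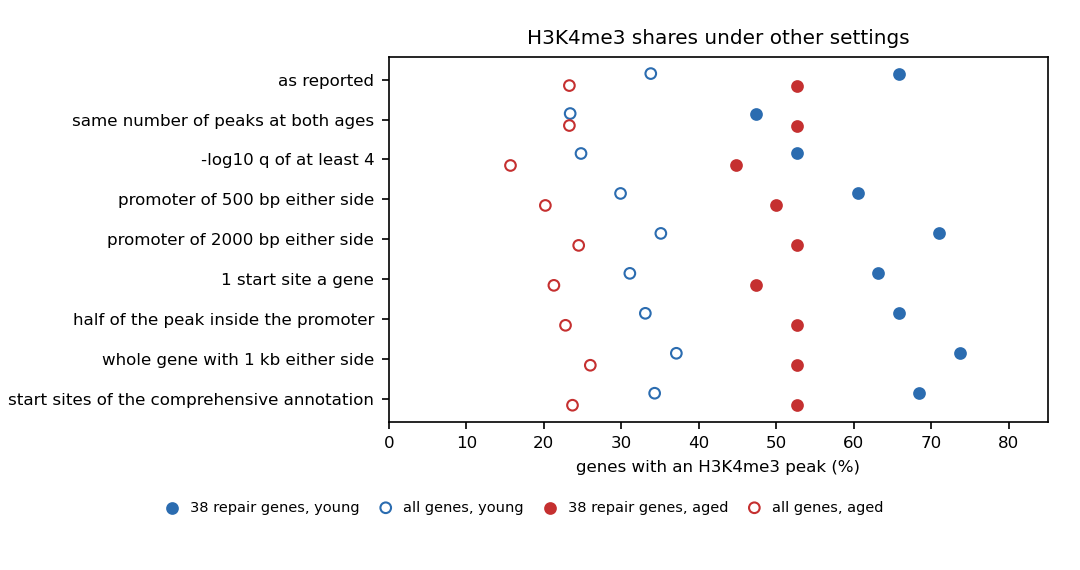
Percent of genes with an H3K4me3 peak (x axis) under the reported setting and 8 others (rows), for the 38 repair genes (filled) and all protein-coding genes (open), in young (blue) and aged HSCs (red). The filled symbols lie above the open ones of the same age in every row, and the order of the ages among the repair genes turns only where both lists have the same number of peaks.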

How the data were processed

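Histone marks were profiled by the authors, who cross-linked HSCs, digested chromatin with micrococcal nuclease, sonicated it and aligned single reads to mm10 with Bowtie2. Per the submitters' processing notes, MACS2 2.2.6 was among the tools, and further settings of the peak calls are not given in the sources used here. The deposited lists give the fold enrichment of each peak as a linear ratio, the −log10 p-value and the −log10 q-value. For the broad marks these are averages over a region. The H3K4me3 lists also give the position of each summit. Replicates were pooled by the authors, which lets a peak of 1 library enter a list. By their peak names, H3K4me3 peaks came from a pair of libraries, while names in the broad lists cite a single library, and whether the other one was included is not known.

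The 11 peaks on unplaced scaffolds were left out. Start sites (41438 of 21851 genes) came from the basic set of GENCODE M21. Reads at a summit were recovered from the fold, taken as (reads + 1) / (background + 1), and from the Poisson p-value, and matched the deposited −log10 p within 0.01 for 100% of H3K4me3 peaks. The lowest background was 3.70 reads in young and 3.52 in aged HSCs. Depth of the broad lists is unknown. Overlap and recovery were tested on simulated data. Exons and motifs were read from GENCODE and RefSeq with Python 3.11.15, pandas 2.3.3, scipy 1.17.1 and pysam 0.24.0, and plots drawn with matplotlib 3.10.9.

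The genes, their roles, the 2 other gene lists, the motifs, the markers and the first 7 alternative settings were chosen with earlier results of these data known. An 8th alternative, start sites of the comprehensive annotation, was added after seeing the data. Values are given for every gene with H3K4me3 at both ages or with a Polycomb mark, and the other genes are named by status. With 1 list per mark and age, no test was run. Some marker genes are not reported here.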

Additional observations from a re-analysis of the deposited data

How the results depend on the processing

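H3K4me3 counts moved by less than 1.5 times under all 8 alternatives. They ranged from 18 to 28 genes in young, from 17 to 20 in aged, from 11 to 14 at both ages and from 26 to 34 at either age. The Polycomb counts were small and moved. For H2AK119ub1 in aged HSCs the count was 0 at −log10 q of at least 4, 1 with the same number of peaks at both ages and 8 over whole genes with 1 kb on either side (24.4% of all genes). For H3K27me3 the count was 1 in young HSCs with 1 start site a gene and 1 with the comprehensive annotation (Fancc in both). Over whole genes it was 3 in young (22.8% of all genes) and 1 in aged HSCs (13.6%). These counts changed by the construction of the alternatives, which list fewer peaks or search other stretches. No paired analysis was possible because the lists were pooled over libraries. Without replicate lists, the spread between libraries is unknown, and a gene without a listed peak may lie under the threshold of the caller.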
